A study of Mus musculus with 30 samples.

Results

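Gene expression in mouse embryoid bodies (EBs) on day 2 was compared with that in EBs on day 1, across all genes of the deposited time course table. The libraries were chosen by their labels alone, 2 of EB day 1 and 2 of EB day 2. They are 4 of the 10 libraries of the E14 time course, which runs over days 0 to 4 and starts with ES cells, of 14 RNA libraries and of 30 samples in the series. Embryonic stem (ES) cells form EBs, which are aggregates that differentiate, when they are taken out of the conditions that hold them in self-renewal. The study asks how p53 acts with Wnt and TGF-β signals on mesendoderm genes, active in cells that go on to form mesoderm and endoderm. All 4 libraries came from 1 wild-type ES cell line, E14Tg2a.IV of the 129/Ola strain. The line was kept on gelatin, in serum medium with LIF, and its EBs were made by the procedure of the line's supplier. No agent is named for the RNA samples beyond these conditions. Whether the 2 libraries of a day were separate cultures is not stated in the labels, so p-values measure only the spread between these samples, which may be technical.

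ES cells in serum and LIF hold a naive state, in which a network of transcription factors (Esrrb, Klf4, Tfcp2l1, Zfp42 and others) is active beside the core factors Pou5f1 and Sox2. When LIF is withdrawn the naive factors are shut off, while the core factors stay on, and the cells pass through a formative state like that of the epiblast just after implantation, marked by Otx2, Fgf5 and Dnmt3b. Nodal, Wnt and Fgf signals then bring such cells to the primitive streak, whose genes include T, Eomes and Mixl1. The second day of EB culture lies between the exit from the naive state and the streak.

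The day 1 libraries held 37917776 and 39835808 reads, and the day 2 libraries 31114239 and 33522251. Of the 23284 genes in the table, 15841 had enough reads to be tested. The 6 ES and epiblast markers were present in all 4 libraries, with a summed level of 3528 to 4093 CPM on day 1 and 2975 to 3013 CPM on day 2 (CPM, read counts scaled to a common library total). The 2 libraries of day 1 lay further apart than those of day 2: they differed by more than 2-fold in 1677 genes (10.6%), against 611 (3.86%) on day 2. They also lay at different distances between the means of the neighbouring days, and the reason was not tested. The day 0 libraries, which set 1 end of the scale for day 1, differed by more than 2-fold in 3945 genes (24.9%). Over the 3773 genes whose means differed by more than 2-fold between day 0 and day 2, replicate 1 of day 1 had gone a median of 35.0% of the way on the log2 scale, and replicate 2 had gone 67.3%. Over the 4058 genes that differed as much between day 1 and day 3, replicate 1 of day 2 lay at 50.2% and replicate 2 at 70.8%. Replicate 1 of day 1 was the higher of the pair in 59 of the 69 genes that fell on the second day, and replicate 2 in 21 of the 25 that rose. The order was similar on day 2, with replicate 1 higher in 58 of the 69 and replicate 2 in 20 of the 25. Over all genes tested the median log2 difference of replicate 1 from replicate 2 was 0.005 on day 1 and -0.01 on day 2. The part of these replicate differences in the results below was not tested.

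**Figure D1:**
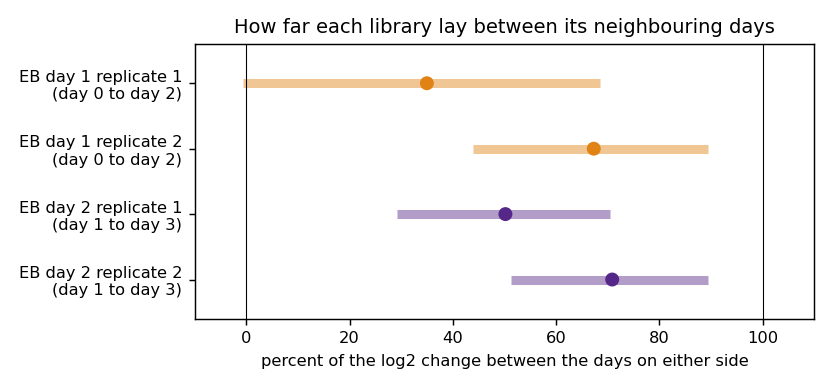
Position of each day 1 and day 2 library between the means of the days on either side. The x axis gives percent of the log2 change, with 0 at the earlier day and 100 at the later one; points are medians over 3773 genes (day 1) or 4058 genes (day 2) and bars run from the lower to the upper quartile, and in each pair replicate 2 lies further along.

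Expression of naive genes was lower on day 2 than on day 1, in a fall that also ran over the neighbouring days. In the test with all 10 libraries fewer genes rose than fell. Snph, Tmem200a and Kif1a were the largest rises called among genes with at least 10 CPM. Of 15841 genes, 94 (0.593%) passed the test, limma on log2 of the normalised read count plus 1 with an adjusted p under 0.05. Of these, 69 (0.436%) fell and 25 (0.158%) rose. The median fall was 1.88 on the log2 scale and the median rise 2.25, while the median over all genes was -0.01. Adjusted p ran only from 0.0256 to 0.0498. No call was left without replicate 1 of day 1, replicate 1 of day 2 or replicate 2 of day 2 (1132, 2219 and 1171 genes then had an unadjusted p under 0.05), whereas 498 higher and 323 lower genes were called without replicate 2 of day 1. A fit without the day 0 libraries, whose spread enters the shared estimate of error, called 954 genes higher (6.02%) and 794 lower (5.01%), the 94 among them. Rises were thus not the smaller set in that fit (54.6% of its calls) or in DESeq2 (50.0%).

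**Figure D2:**
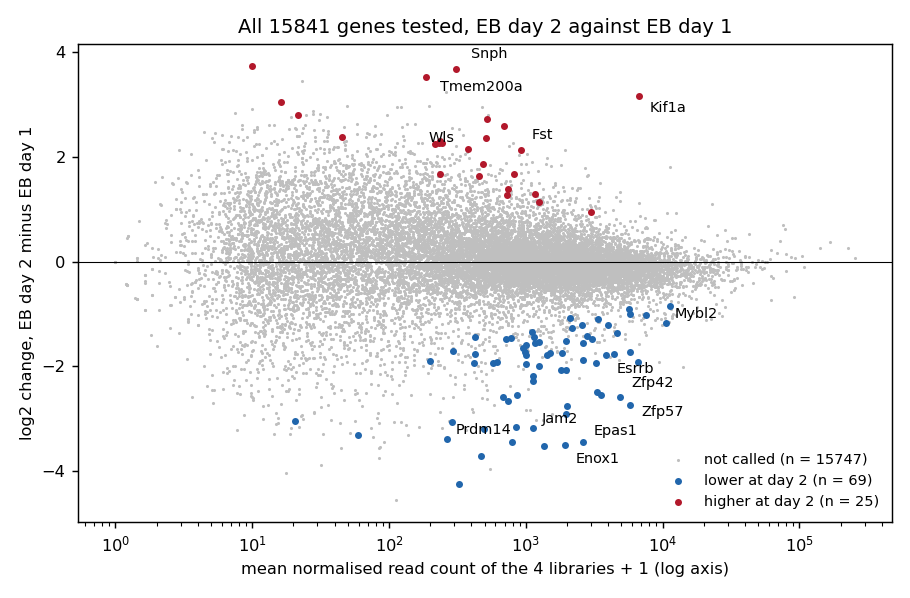
Log2 change from EB day 1 to EB day 2 (y axis) against the mean normalised read count of the 4 libraries plus 1 (x axis, log scale) for 15841 genes. Each point is a gene; the 69 that fell are blue, the 25 that rose are red, and the blue points reach to high read counts.

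The naive transcription factors were the list with the most calls. Of 17 tested, 9 fell, against 0.436% of all genes, and none rose, with a median log2 change of -1.78. Without the day 0 libraries 12 were lower, against 5.01% of all genes, and 1, Sp5, was higher. The median of this list was also negative on the neighbouring days, at -1.48 on the first day and -0.75 on the third. Zfp42 (Rex1), a zinc finger protein used as a marker of the naive state, had normalised read counts of 12667 and 4468 on day 1 and 1496 and 1038 on day 2. Both day 1 libraries stood above both day 2 libraries, and the 2 of day 1 also lay well apart from each other (log2 change -2.59 ± 0.41 (SE), adjusted p = 0.0399). Nr0b1 (Dax1), an orphan nuclear receptor, had counts of 4816 and 2214 on day 1 and 529 and 356 on day 2 and fell by 2.91 ± 0.46 (SE) on the log2 scale (adjusted p = 0.0399). Its mean was 148 on day 3 and 31.6 on day 4, below its level on day 2. Prdm14, which represses Fgf signalling and de novo DNA methylation in ES cells, went from 690.1 and 276 to 56.8 and 29.3 (log2 change -3.39 ± 0.54 (SE), adjusted p = 0.0399). Tcl1, a coactivator of the kinase Akt, went from 1115 and 664 to 118 and 73.8 (log2 change -3.19 ± 0.43 (SE), adjusted p = 0.0309). In both genes the lower day 1 library still lay several-fold above the higher day 2 library.

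Esrrb and Tfcp2l1, orphan receptor and partner factor of the naive network, had already fallen on the first day (adjusted p = 0.0117 and 0.00287). Esrrb had a mean of 22885 in ES cells, then 7548 and 4527 on day 1 and 1804 and 1600.0 on day 2 (log2 change of the second day -1.78 ± 0.31, adjusted p = 0.0469). Tfcp2l1 had a mean of 12156 in ES cells, then 3294 and 2425 on day 1 and 796 and 884 on day 2 (log2 change -1.75 ± 0.21, adjusted p = 0.0256). Tfcp2l1 had the smallest adjusted p of the group, and its 2 libraries of each day lay close together. Nr5a2 (Lrh1), a nuclear receptor that can sustain Pou5f1, went from 1498 and 1044 to 248 and 157. Zfp57, a zinc finger protein that protects methylated imprints, went from 13910.1 and 6301 to 1843 and 1070.2, and Mybl2 (B-Myb), a cell cycle factor, from 17663 and 11844 to 7036 and 5838. Their log2 changes were -2.66 ± 0.43, -2.74 ± 0.37 and -1.17 ± 0.21. None of these 3 passed the test of the first day, and their day 0 means were 2581, 12361 and 16206.

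The other naive factors did not pass. Klf4 had fallen on the first day, from 9848 and 7139 to 1093 and 434, and stood at 193 and 169.8 on day 2 (log2 change -1.92 ± 0.44, adjusted p = 0.0704, and 0.0249 without the day 0 libraries). Klf2 read 6523 and 4802 on day 1 and 2291 and 2609 on day 2 (adjusted p = 0.103, and 0.0211 without day 0). Nanog, which had dropped on the first day too, read 563 and 343 on day 1 and 333 and 379 on day 2, and the days overlapped (log2 change -0.31 ± 0.27, adjusted p = 0.575). Tbx3 read 994 and 447 on day 1 and 431 and 318 on day 2, with an adjusted p of 0.367. Klf4, Nanog and Tbx3 thus passed the test of the first day and not that of the second, while Nr0b1, Prdm14, Zfp57 and Mybl2 passed that of the second and not that of the first. In the test of the second step against the first, which share the day 1 libraries, none of these 7 passed.

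Promoter windows of genes that moved on this day are shown for the sequence context of 2 falls and 2 rises. They are RefSeq windows of GRCm38.p6, from 250 bases before to 50 after a start site, and were picked after the values were seen; the authors' build was mm9. Capitals mark searched motifs, namely the GC box GGGCGG, the TATA box TATAAA and the octamer part ATGCAAA, each on either strand. Zfp42 (chr8:43306960-43307259, minus strand) holds a pair of GC boxes and the octamer part, Nr0b1 (chrX:86191525-86191824, plus strand) a TATA box, and Snph (chr2:151632544-151632843, minus strand) and Wls (chr3:159839400-159839699, plus strand) a GC box each.
Zfp42: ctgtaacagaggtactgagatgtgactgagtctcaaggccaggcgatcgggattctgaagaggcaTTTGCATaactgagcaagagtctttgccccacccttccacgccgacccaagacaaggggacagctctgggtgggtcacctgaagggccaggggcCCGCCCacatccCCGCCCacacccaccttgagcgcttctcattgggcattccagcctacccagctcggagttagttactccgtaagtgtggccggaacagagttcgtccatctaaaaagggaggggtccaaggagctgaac
Nr0b1: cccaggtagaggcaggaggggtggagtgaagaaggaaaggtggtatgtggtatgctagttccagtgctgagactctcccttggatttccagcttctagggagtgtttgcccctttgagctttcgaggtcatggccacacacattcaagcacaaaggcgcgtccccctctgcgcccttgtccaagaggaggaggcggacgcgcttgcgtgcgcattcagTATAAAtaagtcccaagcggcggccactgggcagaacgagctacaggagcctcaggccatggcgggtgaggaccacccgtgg
Snph: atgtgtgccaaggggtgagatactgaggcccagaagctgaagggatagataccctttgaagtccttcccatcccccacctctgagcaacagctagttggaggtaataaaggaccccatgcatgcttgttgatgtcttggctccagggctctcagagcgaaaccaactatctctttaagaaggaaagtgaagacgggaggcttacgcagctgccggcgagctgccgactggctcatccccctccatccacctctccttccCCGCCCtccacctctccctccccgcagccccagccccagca
Wls: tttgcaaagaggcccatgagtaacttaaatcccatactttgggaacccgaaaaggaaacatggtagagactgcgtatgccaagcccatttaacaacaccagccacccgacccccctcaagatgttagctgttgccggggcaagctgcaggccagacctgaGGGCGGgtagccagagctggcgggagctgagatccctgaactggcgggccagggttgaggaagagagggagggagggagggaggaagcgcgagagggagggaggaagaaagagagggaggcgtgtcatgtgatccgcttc
Over all genes called, 53 of 69 that fell and 22 of 25 that rose had windows in the table, 75 and 27 in number. The GC box was present in 50.7% of windows of genes that fell and 51.9% of those that rose, against 35.7% of all 32851 windows. Their median GC content was 57.7% and 62.3%, against 52.7% in all windows. All windows come from 27025 genes, more than the 15841 tested here, so these shares are not matched for expression. The octamer part was in 5.33% of windows of falls and in none of the 27 of rises, against 4.63% of all. For the TATA box the shares were 14.7%, 7.41% and 13.6%. Further motifs searched were AAGGTCA, the Esrrb type (5.33%, 0% and 4.72%), the E-box CACGTG (6.67%, 11.1% and 7.15%), and the Tcf and Sox type CTTTGTT (4%, 7.41% and 5.85%). A match describes the letters in a window and is not evidence of binding.

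**Figure D3:**
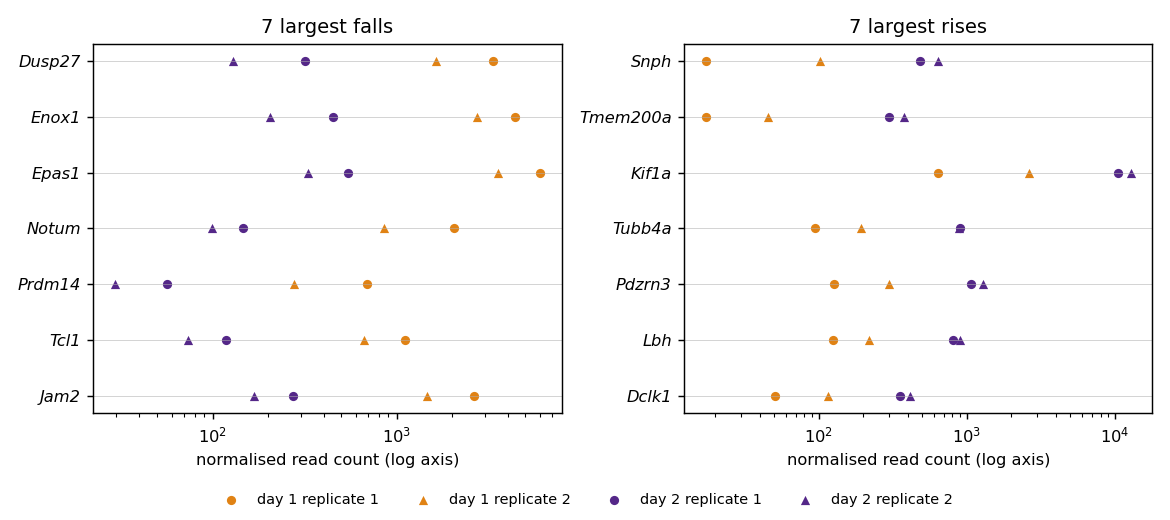
Normalised read counts (x axis, log scale) of the 7 largest falls (left) and the 7 largest rises (right) among called genes chosen by the naming rule, in the 2 libraries of EB day 1 (orange) and of EB day 2 (purple). In these genes the days do not overlap, as the rule requires, and replicate 2 of day 1 lies nearer to day 2 in each of them.

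Beyond the transcription factors, some surface and other markers of the naive state fell. Of 21 tested, 3 fell, against 0.436% of all genes, and none rose, with a median log2 change of -1.29. The median of these 21 was -0.16 on the first day and -1.09 on the third. The 3 that fell were Jam2, Ooep and Nr0b1, the last a transcription factor already counted among the naive factors above. Without the day 0 libraries 14 were lower, against 5.01% of all genes. Jam2, a junctional adhesion molecule, went from 2626 and 1455 to 274 and 167 (log2 change -3.19 ± 0.37 (SE), adjusted p = 0.0256). It was one of the firmest falls, with a mean of 4920.0 in ES cells and 46.7 on day 4. Ooep, an oocyte and early embryo protein, went from 2687 and 1902 to 842 and 532 (adjusted p = 0.0491). Several others narrowly missed the threshold. Tdh, the threonine dehydrogenase on which mouse ES cells depend, read 17092 and 12809 on day 1 and 4562 and 3358 on day 2 (log2 change -1.92 ± 0.36, adjusted p = 0.0541). Fbxo15, a Pou5f1 and Sox2 target, read 3859.6 and 2875 on day 1 and 1064 and 787 on day 2 (adjusted p = 0.0592), and Gdf3, a TGF-β family ligand, 3163 and 2409.8 on day 1 and 1181 and 1148 on day 2 (adjusted p = 0.0614). In these 3 genes the days did not overlap, which held for 61.2% of all genes tested (30.9% with day 2 lower and 30.3% with day 2 higher).

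Among the largest falls were also genes outside the pluripotency lists. Enox1, a cell surface oxidase, went from 4369 and 2728 to 449 and 205 (log2 change -3.50 ± 0.48), and the septin Sept1 from 5011 and 1959 to 766 and 276 (-2.77 ± 0.50). In ES cells their means were 3561 and 6281. Another set had its highest mean of 2 libraries on day 1, by any margin, and that peak was not tested for the set. Of the 69 genes that fell, the mean was highest on day 0 in 47, on day 1 in 21 and on day 4 in 1, the Kit ligand gene Kitl. Epas1, which encodes the hypoxia-inducible factor Hif-2α, stood at 500.5 and 2270.0 in ES cells, 6018 and 3569 on day 1 and 542 and 329.8 on day 2. Its day 2 libraries were far below those of day 1 (log2 change -3.45 ± 0.63 (SE), adjusted p = 0.0489), and the difference between day 0 and day 1 did not pass (adjusted p = 0.102). Dusp27, a dual specificity phosphatase family member, read 3317 and 1628 on day 1 and 319 and 129 on day 2 (log2 change -3.51 ± 0.60). Its day 0 mean of 2469 lay between the 2 libraries of day 1, so days 0 and 1 were about level. Xbp1, the transcription factor of the unfolded protein response, went from 3989 and 3153 to 1472 and 1604 (log2 change -1.21 ± 0.19 (SE), adjusted p = 0.0399). It was the 1 member called of 16 tested in its stress list, against 0.593% of all genes.

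No core pluripotency factor passed the test. Of 12 tested, 2 were lower without the day 0 libraries, Sox2 among them, against 5.01% of all genes, and the median log2 change was -0.38. Pou5f1 (Oct4) had counts of 58615 and 46511 on day 1 and 41155 and 37910.0 on day 2, a log2 change of -0.40 ± 0.19 with an adjusted p of 0.295. Sox2 had counts of 17174 and 15897 on day 1 and 9369 and 8120.0 on day 2; the log2 change of -0.92 ± 0.22 missed the threshold with an adjusted p of 0.0764, against 0.0242 without the day 0 libraries. Tdgf1 (Cripto), the Nodal coreceptor, had counts of 22038 and 22109 on day 1 and 15269 and 20188 on day 2. Utf1, a chromatin protein of pluripotent cells, read 23129 and 16012 on day 1 and 14335 and 11906 on day 2. In these 4 genes both day 2 libraries lay below both day 1 libraries, as in 30.9% of all genes.

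LIF signalling was represented by its receptor. Lifr, the receptor subunit for LIF, went from 1807 and 1389 to 627 and 626 (log2 change -1.34 ± 0.20 (SE), adjusted p = 0.0399). It was the 1 called gene of 14 in the list, against 0.593% of all genes. Il6st (gp130), its signalling partner, read 2473 and 3146 on day 1 and 1611 and 1588 on day 2 with an adjusted p of 0.0724. Socs3, a feedback inhibitor and direct Stat3 target, had lost nearly all of its expression on the first day, from 5619.5 and 5026 to 199.9 and 191, and stood at 225 and 501 on day 2. Its second step differed from its first by 5.54 ± 0.63 (SE) on the log2 scale (adjusted p = 0.0439). Socs3 and Otx2 were the only 2 genes of 15841 (0.0126%) that passed this test of the second step against the first. Neither passed with edgeR (adjusted p = 0.0654 for both), with the replicate number as a block (0.0734 for both) or without the filter on low values (0.0641 for both), where no gene passed, while DESeq2 called 420 genes, these 2 among them.

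**Figure D4:**
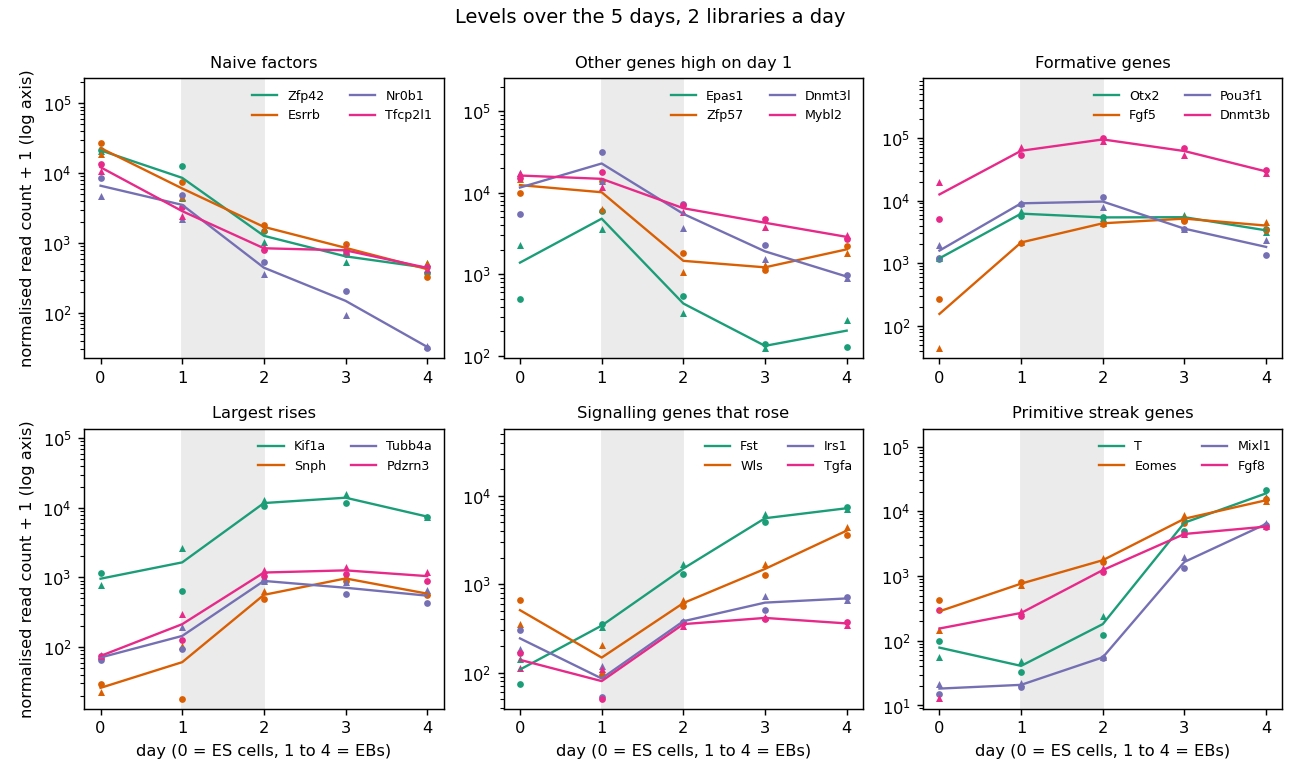
Normalised read counts plus 1 (y axis, log scale) over days 0 to 4 for 24 genes in 6 panels. Lines join the means of 2 libraries, circles are replicate 1 and triangles replicate 2, and the grey band marks the second day; naive factors drop across it, formative genes are above their day 0 level on day 1, and streak genes climb most after it.

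Of 23 genes of the formative state tested, 1 rose, Car14, against 0.158% of all genes, and none fell. The median log2 change was 0.15, and 0.03 and 0.38 without replicate 1 and replicate 2 of day 1. Without the day 0 libraries 7 were called higher and 5 lower, against 6.02% and 5.01% of all genes. Otx2, the homeobox factor that directs the formative state, went from 1179.9 and 1216 in ES cells to 5640.4 and 6749 on day 1 and 5574 and 5213 on day 2. Its second step, -0.19 ± 0.17, minus its first, 2.36 ± 0.17, gave -2.56 ± 0.29 (SE) on the log2 scale (adjusted p = 0.0439). Pou3f1 (Oct6), a POU factor of the epiblast, had 8842 and 9271 on day 1 and 11463 and 7852 on day 2, with a log2 change of 0.07 ± 0.30. Fgf5, a secreted factor of the early epiblast, read 265 and 43.9 in ES cells and 2075 and 2219.8 on day 1 and 4294 and 4395 on day 2. The 2 libraries of each EB day nearly coincided, but the change of 1.02 ± 0.60 did not pass (adjusted p = 0.392), against 0.00806 without the day 0 libraries, which lie several-fold apart. Car14, a membrane carbonic anhydrase, went from 171 and 275 to 581 and 777 (log2 change 1.63 ± 0.29 (SE), adjusted p = 0.0469).

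Of 15 DNA methylation genes tested, 1 fell, Zfp57, against 0.436% of all genes, and none rose, with a median log2 change of -0.35. Zfp57 is also counted among the naive factors above. Without the day 0 libraries 7 were called lower, against 5.01% of all genes. Dnmt3b, a de novo methyltransferase, had counts of 52648 and 72315 on day 1 and 101150.0 and 88494 on day 2 (log2 change 0.62 ± 0.48, adjusted p = 0.527). Dnmt3a, the other de novo enzyme, had 27699 and 30326 on day 1 and 22298 and 15379.5 on day 2 (-0.65 ± 0.41, adjusted p = 0.419). Dnmt3l, their catalytically inactive cofactor, had 31718 and 13814 on day 1 and 7266 and 3705 on day 2 (-2.01 ± 0.55, adjusted p = 0.0943). The day 2 libraries thus lay above those of day 1 for Dnmt3b and below them for Dnmt3a and Dnmt3l, and none of these 3 passed. Tet2, a methylcytosine dioxygenase, read 2729 and 2861 on day 1 and 1063 and 1304 on day 2 (adjusted p = 0.134). In the Polycomb group 1 of 23 fell, Mtf2, against 0.436% of all genes. Mtf2, an accessory factor of Polycomb complex 2, went from 14496 and 14558 to 8858 and 7288 (log2 change -0.85 ± 0.16 (SE), adjusted p = 0.0498). Jarid2, another accessory factor, read 29139 and 27884 on day 1 and 14667 and 11755 on day 2 with an adjusted p of 0.0777.

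Of the 12 rises named by size, Fst was the only member of a list used here, so they are described singly. Kif1a, a kinesin motor that carries synaptic vesicle precursors, had counts of 643 and 2645 on day 1 and 10507 and 12874 on day 2 (log2 change 3.16 ± 0.51 (SE), adjusted p = 0.0399). Snph, which anchors mitochondria to microtubules in axons, went from 17.2 and 102 to 485 and 636 (log2 change 3.68 ± 0.63 (SE), adjusted p = 0.0469). In both genes the day 1 libraries differed by more than 4-fold, with the higher one still below day 2. Tubb4a, a beta tubulin, went from 93.9 and 193 to 897 and 882, and Dclk1, a doublecortin-like kinase, from 50.8 and 115 to 352 and 416 (log2 changes 2.71 ± 0.38 and 2.31 ± 0.38). Jph3, a junctophilin of excitable cells, read 56.9 and 119 on day 1 and 341 and 461 on day 2 (2.25 ± 0.37). None of 18 tested neuroectoderm genes was called, with log2 changes from -1.35 to 1.83 and a median of 0.02. Without the day 0 libraries 2, Sox3 and Nes, were called higher, against 6.02% of all genes, and none lower. These members stood on both sides. The factors Sox1 and Pax6 read 43.9 and 33.5 on day 1 and 24.5 and 26.7 on day 2, and 415 and 425 on day 1 and 205 and 248 on day 2. Sox3, a Sox factor of epiblast and neural plate, read 843 and 1007 on day 1 and 1669.7 and 1686 on day 2, and Nes, the filament protein nestin, 538 and 813 on day 1 and 1978 and 2809 on day 2. The summed level of the 6 neural markers was 16.0 to 16.7 CPM on day 1 and 10.1 to 12.4 CPM on day 2. Of the other genes named by size, Tmem200a, a membrane protein, went from 17.2 and 45.5 to 299 and 375 (3.53 ± 0.42), and Pdzrn3, a ubiquitin ligase, from 127 and 298 to 1059 and 1289.8 (2.58 ± 0.37).

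Of the 25 genes that rose, the mean was highest on day 2 in 5, on day 3 in 11 and on day 4 in 9. Irs1, the insulin receptor substrate, and Tgfa, a ligand of the EGF receptor, read lower on day 1 than in ES cells, though neither passed the test of the first day (adjusted p = 0.0625 and 0.227). Irs1 had a day 0 mean of 243 and counts of 51.7 and 118 on day 1 and 378 and 383 on day 2 (log2 change 2.27 ± 0.40 (SE), adjusted p = 0.0469). Tgfa had a day 0 mean of 139 and counts of 49.1 and 109 on day 1 and 367 and 339 on day 2 (log2 change 2.25 ± 0.38 (SE), adjusted p = 0.0469). For both, the day 1 libraries were the lowest of the 3 days, while the lower of the day 2 libraries was over 3 times the higher of day 1. Lbh, a transcriptional cofactor known as a Wnt target, went from 124 and 219 to 801 and 903 (2.36 ± 0.43) and kept a similar level on day 4, with a mean of 1119.9.

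Regulators of the Nodal, Activin and Wnt pathways were among the called genes. Fst (follistatin), a secreted antagonist of Activin, had counts of 351 and 328 on day 1 and 1316 and 1691 on day 2 (log2 change 2.13 ± 0.28 (SE), adjusted p = 0.0309). It was the only one called of 19 tested in the Nodal and Activin list, against 0.593% of all genes. The 2 libraries of each day lay close together, and the mean of Fst rose further to 5570.4 on day 3. Nodal itself read 5458 and 4924 on day 1 and 4716 and 3877 on day 2 (adjusted p = 0.656). Lefty1 and Lefty2, feedback inhibitors of Nodal, read 8888 and 18639 on day 1 and 13026 and 11947 on day 2, and 7686 and 5481 on day 1 and 4368 and 3455 on day 2, with neither called. Inhbb, an Activin subunit, read 341 and 94.2 on day 1 and 9.79 and 4.44 on day 2; this log2 change of -4.56 ± 1.02 missed the threshold (adjusted p = 0.067, and 0.00685 without the day 0 libraries), and its day 0 libraries stood at 169 and 2170.3.

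Notum and Rspo1, secreted regulators in the Wnt lists, moved in opposite directions. Notum, an enzyme that inactivates Wnt ligands by removing their lipid, went from 2048 and 849.6 to 146 and 98.7 (log2 change -3.45 ± 0.48 (SE), adjusted p = 0.0316). Rspo1, an R-spondin that enhances Wnt receptor signalling, went from 156 and 275 to 699.8 and 808 (log2 change 1.86 ± 0.30 (SE), adjusted p = 0.0399), and Wls, in none of the lists, which carries Wnt ligands to the cell surface, from 92.2 and 202 to 564 and 659 (log2 change 2.15 ± 0.39 (SE), adjusted p = 0.0489). Wls had a day 0 mean of 508, above both day 1 libraries and below both day 2 libraries, and its mean reached 4032 on day 4. Of 22 tested targets and secreted inhibitors, 1 rose and 1 fell (median log2 change 0.40), against 0.158% and 0.436% of all genes. Without the day 0 libraries 6 were higher and 2 lower, against 6.02% and 5.01% of all genes. Axin2, a general Wnt target, read 1135 and 1343 on day 1 and 1573 and 1644 on day 2 (adjusted p = 0.363). Sp5, another target, read 37.0 and 38.3 on day 1 and 128 and 192 on day 2 (log2 change 2.03 ± 0.48, adjusted p = 0.0724). Among 17 Wnt ligands none was called, against 0.593% of all genes. Wnt3 read 135 and 170.1 on day 1 and 269 and 276 on day 2. Wnt8a read 708 and 1303 on day 1 and 2115 and 2158 on day 2. Without the day 0 libraries 2 ligands were higher, Wnt3 and Wnt8a, and 1 lower, Wnt5a, against 6.02% and 5.01% of all genes.

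Fgf and BMP signalling genes held no call in the test with all 10 libraries. Fgf4, the main Fgf of ES cells, read 9925 and 6490.1 on day 1 and 4709 and 2867 on day 2 (adjusted p = 0.136). Fgf8, a streak ligand, read 244 and 292 on day 1 and 1149 and 1321 on day 2 with day 0 libraries at 295 and 11.9, and its adjusted p was 0.277 with those libraries and 0.000585 without them. Of 13 ERK feedback genes none passed; Spry4 read 4876 and 2951 on day 1 and 1994 and 1422 on day 2 (adjusted p = 0.0614) and Dusp6 4186 and 2542 on day 1 and 3169 and 2394 on day 2 (adjusted p = 0.64). The BMP targets Id1 and Id3 read 3932 and 1942 on day 1 and 2059 and 1332 on day 2, and 3014 and 1922 on day 1 and 1899.6 and 1940.4 on day 2, and the days overlapped for both.

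Primitive streak genes had a median above that of all genes, and none passed the test with all 10 libraries. Of 20 tested, the median log2 change was 0.62, against -0.01 for all genes, and it was 0.30 without replicate 1 of day 1 and 0.91 without replicate 2. In the fit without the day 0 libraries 7 were called higher, against 6.02% of all genes, and none lower. T (brachyury), the T-box factor of the streak, had counts of 31.9 and 47.9 on day 1 and 123 and 236 on day 2 (log2 change 2.10 ± 0.40, adjusted p = 0.0549, and 0.00979 without day 0). Eomes, another T-box factor, had 796 and 728 on day 1 and 1625 and 1887 on day 2 (1.20 ± 0.39, adjusted p = 0.136, and 0.00638 without day 0). Mixl1, a homeobox gene of mesendoderm, had 18.1 and 21.6 on day 1 and 52.8 and 56.0 on day 2 (1.42 ± 0.31, adjusted p = 0.0623, and 0.0101 without day 0). In all 3 the days did not overlap, as in 61.2% of all genes, and the day 2 libraries stood well below the day 3 means of 6672, 7682 and 1652. Evx1 stood the other way, with 146 and 47.9 on day 1 and 21.5 and 39.1 on day 2, and did not pass. No gene passed the test of the second step against the third (0 of 15841, 0%; 722 had an unadjusted p under 0.05, edgeR called 0 and DESeq2 41), in which the steps share the day 2 libraries.

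**Figure D5:**
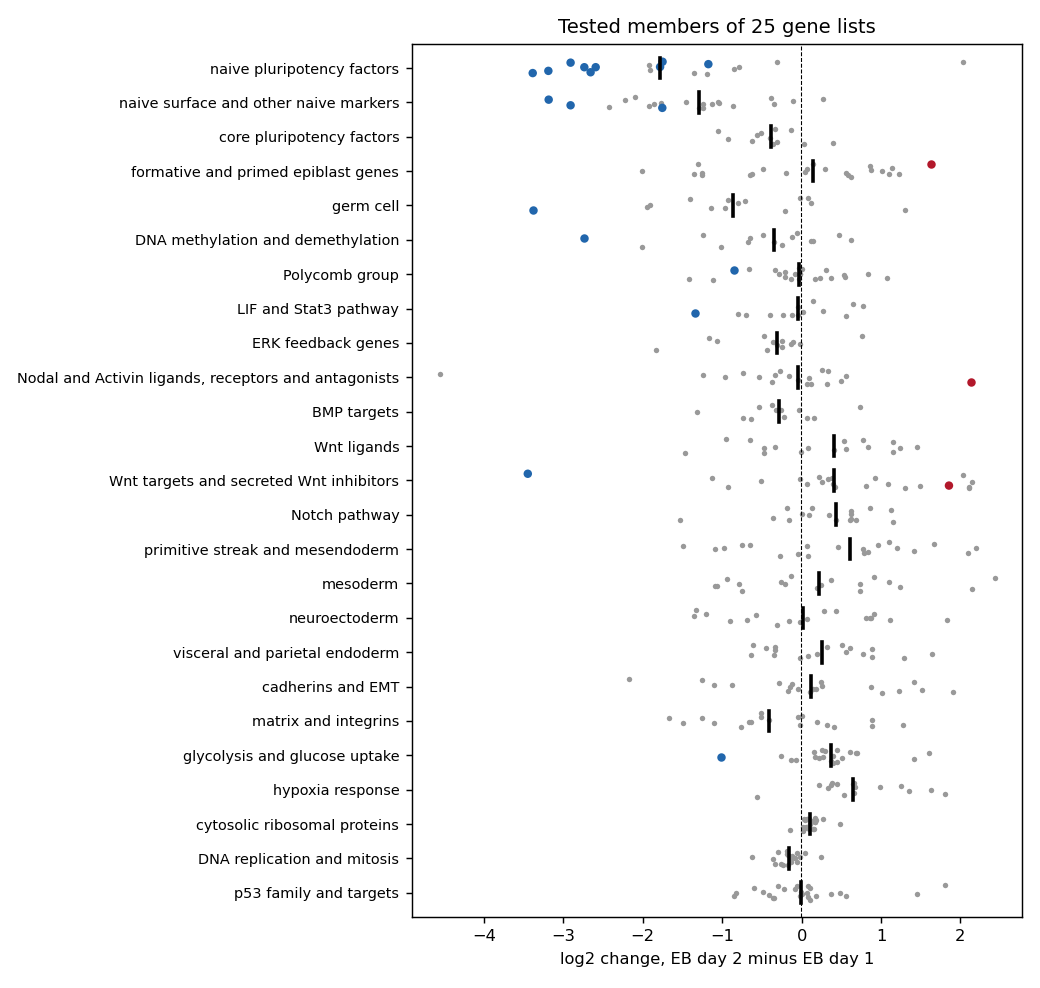
Log2 change from EB day 1 to EB day 2 (x axis) of the tested members of 25 gene lists (rows). Each dot is a gene, blue where it fell, red where it rose and grey where it was not called; black bars are list medians and the dashed line is the median of all genes, and the medians of the naive lists lie furthest to the left.

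In glycolysis 1 of 21 fell, Pfkp, against 0.436% of all genes, while the list median was 0.37. Without the day 0 libraries 4 were higher (Pfkl, Pgk1, Eno2 and Ldha) and 1 lower (Pfkp), against 6.02% and 5.01% of all genes. Pfkp, a phosphofructokinase, went from 10493 and 9750.3 to 4515 and 5509 (log2 change -1.02 ± 0.18 (SE), adjusted p = 0.0489). The hypoxia list had the highest median of the metabolic lists, 0.65, with none of 16 called, against 0.593% of all genes. Its median was 0.23 without replicate 1 of day 1 and 1.10 without replicate 2. In the fit without the day 0 libraries 3 hypoxia genes were higher (Egln1, P4ha2 and Ddit4) and none lower. In this list the median difference of replicate 1 from replicate 2 on day 1 was -0.90 on the log2 scale, larger in size than the step. Ddit4, an mTOR inhibitor induced by stress and hypoxia, read 3126 and 7562 on day 1 and 14091 and 20554 on day 2 (adjusted p = 0.106). None of 24 ribosomal protein genes, 22 respiratory chain genes or 20 genes of DNA replication and mitosis was called, with medians of 0.10, -0.14 and -0.16. The fit without the day 0 libraries called none of them either, against 6.02% higher and 5.01% lower of all genes. Trp53, which encodes p53, read 19926 and 15542 on day 1 and 10656 and 9261 on day 2 (log2 change -0.82 ± 0.18, adjusted p = 0.0635). Its target Mdm2 read 5996 and 5489 on day 1 and 4333 and 4595 on day 2. Cdkn1a, another target, read 1931 and 1738 on day 1 and 1756 and 1865 on day 2. Of 25 tested genes of the p53 family and its targets none was called, against 0.593% of all genes. Without the day 0 libraries 1 was called higher, Ddit4, and 1 lower, Trp53 itself, against 6.02% and 5.01% of all genes.

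Markers of other cell types were low, and none was called with all 10 libraries. In bulk RNA, fewer cells of a type and less RNA per cell cannot be told apart. The 11 visceral and parietal endoderm markers summed to 14.7 to 19.9 CPM on day 1 and 36.5 to 42.3 CPM on day 2, while Afp read 0 to 0.862 and Gata6 14.6 and 16.0 on day 1 and 14.7 and 17.8 on day 2. Trophoblast markers, 6 of 7 in the table, summed to 9.74 to 12.1 CPM on day 1 and 16.4 to 19.4 CPM on day 2. The 7 fibroblast markers summed to 14.2 to 15.5 CPM on day 1 and 30.8 to 34.2 CPM on day 2, with Lum at 0 in all 4 libraries. The 5 blood and vessel markers summed to 7.18 to 10.9 CPM on day 1 and 11.5 to 13.6 CPM on day 2, with Hbb-bh1 at 0, and the 5 mesoderm markers to 5.55 to 8.91 CPM on day 1 and 9.03 to 13.5 CPM on day 2. All 5 of these sums were thus higher in both day 2 libraries than in both day 1 libraries, by a small amount beside the ES and epiblast sum, and their part in the changes above was not tested. In the fit without the day 0 libraries, the wider lists of these types held calls. Of 18 tested visceral and parietal endoderm genes 4 were higher (Amn, Dab2, Col4a1 and Col4a2) and none lower, of 10 trophoblast genes 2 were higher (Eomes and Krt18) and 1 lower (Tfap2c), and of 10 fibroblast genes 1 was higher (Thy1) and 2 lower (Fn1 and Acta2), against 6.02% and 5.01% of all genes. Dab2, an endocytic adaptor, read 203 and 399 on day 1 and 973 and 815 on day 2, and the surface protein gene Thy1 346 and 309.8 on day 1 and 649 and 717 on day 2. On day 2 Dab2 made up most of the visceral and parietal endoderm marker sum, and Thy1 most of the fibroblast sum. These 2 sums therefore largely follow single genes. The cadherins of epithelial and mesenchymal cells were not called, with Cdh1 at 21099 and 26151 on day 1 and 25994 and 27164 on day 2 and Cdh2 at 727 and 854 on day 1 and 888 and 804 on day 2.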

How the data were processed

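RNA of the 10 E14 time course libraries, 2 on each of days 0 to 4, was analysed, and the 4 genotype libraries and the ChIP-seq samples were not used here. The labels' protocols name the TruSeq RNA kit v2, which does not keep the strand, paired-end reads and RNA integrity numbers over 9.5. Per the submitters' processing notes, the authors used Bowtie2, HTSeq 0.5.4, SAMtools 0.1.19, FastQC 0.11.3 and DESeq2 with the build mm9, in no stated role or order. The deposited values are a signal, in which the authors divided each read count by a factor of its library; they are called normalised read counts here. In each library 100% of the values were whole reads within 1e-06 after multiplying the factor back, and these factors had a ratio of 1 to size factors computed by the median of ratios. Because of this scaling, levels of genes of different length are not compared.

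The function filterByExpr of edgeR, applied to recovered reads, kept 15841 genes. They were fitted with limma 3.58.1 (R 4.3.3, eBayes with a trend) after adding a pseudocount of 1 and taking log2. Day was a factor, all 10 libraries shared 1 estimate of spread (5 residual and 4.98 prior degrees of freedom), and an adjusted p (Benjamini-Hochberg over all genes) under 0.05 was a call. Values quoted after ± are standard errors of n = 2 libraries a day. Tested on simulated data for this step with 15841 genes, the fit called 16.4% of genes set to change 2-fold, 68.7% at 4-fold and 87.9% at 8-fold. Alternatives were edgeR 4.0.16, DESeq2 1.42.0, TMM scaling, pseudocounts of 10 and 0.5, no filter, a mean of at least 100, fits without day 0 or on the 4 libraries alone, a replicate block, and leaving out each library.

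Genes were named by rule: the 12 largest rises and falls among called genes whose days do not overlap and whose higher day has at least 10 CPM (no Gm, Rik or LOC symbols), up to 3 members of each of 45 lists with the smallest p, and a fixed set. Members and lists were chosen with earlier results of these data known. Genes named outside the rule were chosen after their values were seen. Some genes that the rule names are not reported here. Promoter windows came from RefSeq (GRCm38.p6), matched by symbol.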

Additional observations from a re-analysis of the deposited data

Results flagged for a closer look

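For 2 genes the second day's change differed from the first day's by the test of the difference itself, in which the steps share the day 1 libraries. For Otx2 the second step minus the first was -2.56 ± 0.29 (SE) on the log2 scale (limma, adjusted p = 0.0439), with 2.36 ± 0.17 on the first day and -0.19 ± 0.17 on the second. For Socs3 it was 5.54 ± 0.63 (adjusted p = 0.0439), with -4.76 ± 0.36 on the first day and 0.78 ± 0.36 on the second. Neither gene passed the test of the second day alone (adjusted p = 0.571 and 0.272), and the 2 day 2 libraries of Socs3 lay apart, at 225 and 501. Both calls were absent with edgeR (adjusted p = 0.0654 for both), with the replicate block (0.0734) and without the filter on low values (0.0641). Leaving out 1 library of day 1 or day 2 gave adjusted p-values of 0.0975 to 0.478 for Otx2 and 0.0103 to 0.619 for Socs3, which passed without replicate 1 of day 2 alone.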

How the results depend on the processing

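Of 69 lower and 25 higher genes, 74 of the 94 were also called by edgeR, 94 by DESeq2, 85 with TMM scaling, 92 with a pseudocount of 10 and 20 without the filter. DESeq2 called 644 higher and 643 lower, the 4 libraries alone 88 and 231, the fit without day 0 954 and 794, and the fit without the filter 5 and 16. Higher genes made up 26.6% of the calls, 50.0% in DESeq2 and 54.6% without day 0. The second step against the first gave 2 genes, 0 with edgeR, 0 without the filter, 0 with the replicate block and 420 with DESeq2, and the second against the third 0, with 41 in DESeq2. Leaving out 1 library gave 0 to 498 higher genes, 0 to 323 lower genes and 0 to 1 genes between the first steps. The 9 naive factors called lower became 3 without the filter and 0 to 10 when 1 library was left out. None of the 94 calls changed sign in these fits where it had a value, and of 35 called genes named by the rule, edgeR kept 24, the fit without the filter 11 and the replicate block 31. Of the named genes that were not called, 9 changed sign in at least 1 fit. Leaving out replicate 1 of day 1 moved 21 of 45 list medians by over 1.5 times and changed the sign of 6, and leaving out replicate 2 moved 22 and changed 2. With 1 library left out, the lone library of its day is assumed to vary like the others. Same-numbered libraries had deviations correlated at -0.19 to 0.35 over all pairs of days, with 0.29, 0.16 and 0.35 between days 1 and 2, 1 and 3, and 2 and 3. The other pairs of days stood at 0.04 or below. Replicate 2 lay further along on day 3 as well as on days 1 and 2. On day 3 it had gone a median of 52.4% of the way from day 2 to day 4, against 34.5% for replicate 1. These values do not decide whether same-numbered libraries are paired. No label links the numbers, and the fit reported here has no pairing. The replicate block called 37 higher and 88 lower genes, sharing 80 of the 94. Why the counts move was not tested. Precision is limited by 2 libraries a day, and the labels do not say whether the intervals cover any difference between cultures.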

Other observations

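The genes below were chosen after their values were seen, to describe calls and lists not yet given. Among further rises, Nrcam, a neuronal cell adhesion molecule, went from 287 and 518 to 1106 and 1358 (limma, log2 change 1.67 ± 0.30 (SE), adjusted p = 0.0489). Grik3, a kainate receptor subunit, went from 694 and 865 to 1653 and 1760.0 (log2 change 1.14 ± 0.19 (SE), adjusted p = 0.0415), and Mapk8ip2, a JNK scaffold of the brain, from 335 and 487 to 1003 and 1124 (log2 change 1.39 ± 0.23 (SE), adjusted p = 0.0469). Grik3 had stood at a mean of 1756 in ES cells, near its day 2 level. Other called rises, Flt3, Adi1 and Bahd1 among them, are not described. None of 18 tested neuroectoderm genes was called with all 10 libraries. The 6 neural markers summed to 16.0 to 16.7 CPM on day 1 and 10.1 to 12.4 CPM on day 2.

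Among falls outside the lists, Mov10, an RNA helicase that restrains retroelements, went from 7826 and 5820.1 to 2113 and 1885 (log2 change -1.76 ± 0.20 (SE), adjusted p = 0.0256), with one of the smallest adjusted p-values of the step. Adam19, a membrane metalloprotease, went from 8066 and 9646 to 3226 and 2187 (log2 change -1.73 ± 0.21 (SE), adjusted p = 0.0256) and had a mean of 8052 again on day 4. Kitl, the ligand of the receptor Kit, went from 292 and 340.2 to 79.3 and 88.0 (log2 change -1.90 ± 0.28 (SE), adjusted p = 0.0399). In the germ cell list 1 of 14 fell, Prdm14, also counted among the naive factors, against 0.436% of all genes. The median log2 change of this list was -0.86. In the Notch list none of 17 was called, with a median of 0.43, and the target Nrarp read 142 and 191 on day 1 and 315 and 416 on day 2 (adjusted p = 0.0748). Without the day 0 libraries 3 of the list were higher (Notch3, Hes1 and Nrarp) and 1 lower (Notch4), against 6.02% and 5.01% of all genes. Among 21 imprinted genes none was called, and without the day 0 libraries 1 was higher (Ndn) and 2 lower (Peg10 and Cdkn1c). Peg10, a retrotransposon-derived gene, read 12907 and 11186 on day 1 and 5587 and 5543 on day 2 (adjusted p = 0.0813).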
